A study of Homo sapiens with 26 samples.

Results

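RPL27 encodes a protein of the large (60S) subunit of the cytosolic ribosome, and is described here for the position of ribosomes on its mRNA in cells given PF-06446846. It is 1 of the 12325 coding sequences in the deposited codon maps and was taken by its transcript, ENST00000253788, a reading frame of 137 codons with the stop codon as the last. RPL27 was chosen by the shift of its reads towards the 5′ end in the 60-min libraries of study 1 at 1.5 μM PF-06446846. The values of those libraries are therefore given as a description without a test. Earlier results for the other libraries were also known when RPL27 was chosen. The p-values and ranks given for them describe a gene already picked out and are not tests on unselected libraries. All samples were Huh7 cells, an established hepatoma line of hepatocyte origin, and PF-06446846 is a small molecule whose effect on translation the study examined. In study 1, ribo-seq was made from cells that received vehicle (0.5% DMSO), 0.3 μM or 1.5 μM PF-06446846 for 10 min or for 60 min, with 3 libraries for each of the 6 groups. In study 2, ribo-seq and mRNA-seq were made after 60 min of vehicle or 1.5 μM PF-06446846, with 2 libraries for each of the 4 groups.

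Ribo-seq sequences the mRNA fragments protected by ribosomes, so that reads accumulate at codons where ribosomes spend longer and thin out on codons that fewer ribosomes reach. A ribosome that halts within a reading frame therefore gives reads at and 5′ to the halt and few reads 3′ to it, and a ribosome arriving from upstream can queue behind it. The protein made from RPL27 enters the 60S subunit during its assembly in the nucleolus. Reads were placed at the codon inferred to lie in the ribosomal P site, and levels are reads per 1000000 coding-sequence reads of the library (RPM), which express a share of the library and not an absolute number of ribosomes.

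The reading frame lies on the forward strand of chromosome 17 in GRCh38 (GENCODE 44, gene ENSG00000131469.15). Exon 1 (chr17:42998419-42998471) is untranslated, codons 1 to 27 are the coding part of exon 2 (chr17:42998751-42998831), and exons 3, 4 and 5 hold the rest of the coding sequence up to chr17:43002917. The downstream stretch of added reads described below, codons 23 to 28, spans the junction of exons 2 and 3, which falls directly after codon 27. The first run shows the stretch with the added reads, with codons 13 to 16 and codons 23 to 27 in capitals, and the second run shows the start of exon 3 (chr17:42999933-42999992), with codon 28 in capitals.
RPL27 codons 1 to 27: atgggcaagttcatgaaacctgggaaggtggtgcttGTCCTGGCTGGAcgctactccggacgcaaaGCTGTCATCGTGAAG
RPL27 codons 28 to 47: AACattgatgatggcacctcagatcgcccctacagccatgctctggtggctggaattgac
Codon 23 is GCT and codon 26 is GTG, and the codons of the upstream peak, 14 and 15, are CTG and GCT. Of the 381 windows of 28 bases in the RPL27 coding sequence, 162 occur in a transcript of another gene in GENCODE, including 29 of the 57 windows within codons 1 to 28. None of the 381 windows occurs in another transcript of the deposited set that GENCODE names.

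The ribo-seq libraries held 6414227 to 22224137 coding-sequence reads, and RPL27 took 6551 to 24565 reads of each of the 26 libraries. Of 8 hepatocyte markers, 7 matched a transcript by gene name (ALB did not), with a summed level of 8397 to 31298 RPM. CD68 of 2 leukocyte markers and PECAM1 of 2 endothelial markers matched one, at 35.6 to 59.3 RPM and 11.5 to 26.7 RPM, and neither fibroblast marker did. Of the 12325 transcripts 1055 had no gene name, so a marker without a match may still be among them. These are bulk libraries, in which fewer cells and less RNA per cell cannot be told apart. The p-values below set a difference against the spread between the libraries of a group, which may be partly technical. In edgeR and DESeq2 that spread is in part shared between transcripts.

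After 10 min, RPL27 reads at 1.5 μM were fewer than in vehicle at codons 29 to 137 and more at codons 1 to 28, and their sum did not pass the test for a change. Codon 28 was the Dmax position of the 60-min libraries of study 1, that is, the codon at which the cumulative fraction of RPL27 reads (CFR) in the treated libraries exceeded that in the vehicle libraries by the widest margin. It was kept as the boundary in every other comparison. The reads 3′ to codon 28 amounted to 205, 234 and 258 RPM in the 3 libraries at 1.5 μM, and to 849, 1073 and 885 RPM in the 3 vehicle libraries. Each treated library lay below each vehicle library and retained 21.9% to 27.6% of the vehicle mean. The 3′ reads fell by 1.92 ± 0.12 on the log2 scale (SE, n = 3 against 3, adjusted p = 3.21e-06, edgeR quasi-likelihood test with Benjamini-Hochberg adjustment over 10738 transcripts). Of all transcripts tested, 183 (1.7%) passed an FDR of 0.1 in this comparison, a number that ranged from 27 to 1691 when 1 library was left out (1691 without vehicle replicate 3), with RPL27 among them each time.

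The reads at codons 1 to 28 amounted to 748, 708 and 777 RPM at 1.5 μM and to 171, 136 and 193 RPM in vehicle. All 3 treated libraries lay above all 3 vehicle libraries. The 5′ reads rose by 1.95 ± 0.17 on the log2 scale (adjusted p = 2.72e-06, edgeR), in a comparison in which 5.86% of 7596 transcripts passed (445, or 37 to 976 without 1 library). With the boundary at codon 50 in place of codon 28, the 5′ change was 1.31 (adjusted p = 3.94e-04, edgeR). The split is the change of the 3′ reads relative to the 5′ reads of the same library. Each stretch was scaled on its own over all transcripts, so the split is relative to that of the other transcripts. For RPL27 it was -3.91 ± 0.19 on the log2 scale, or a 15.02-fold shift (adjusted p = 9.27e-16, edgeR). The split passed for 480 of 10814 transcripts (4.44%), of which 178 were higher and 302 lower 3′, and RPL27 ranked 41 from the lowest. Without 1 library the split passed for 170 to 736 transcripts. With 1 library size for both stretches of a library, the split of RPL27 was -4.18 beside a median of -0.26 over all transcripts, and 55 transcripts passed as higher and 969 as lower.

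Summed over the whole coding sequence, RPL27 stood at 953, 942 and 1035 RPM at 1.5 μM and at 1020, 1209 and 1077 RPM in vehicle. The groups overlapped, and the whole-CDS change was -0.12 ± 0.10 on the log2 scale (adjusted p = 0.55, edgeR, 0.851% of 11045 transcripts passed, or 9 to 1656 of them without 1 library). The gain at codons 1 to 28 was 578 RPM and the loss at codons 29 to 137 was -703 RPM, a net difference of -125 RPM between the group means. Without the last 15 codons the whole-CDS change was 0.07 (adjusted p = 0.742, edgeR), so that its direction turned.

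**Figure D1:**
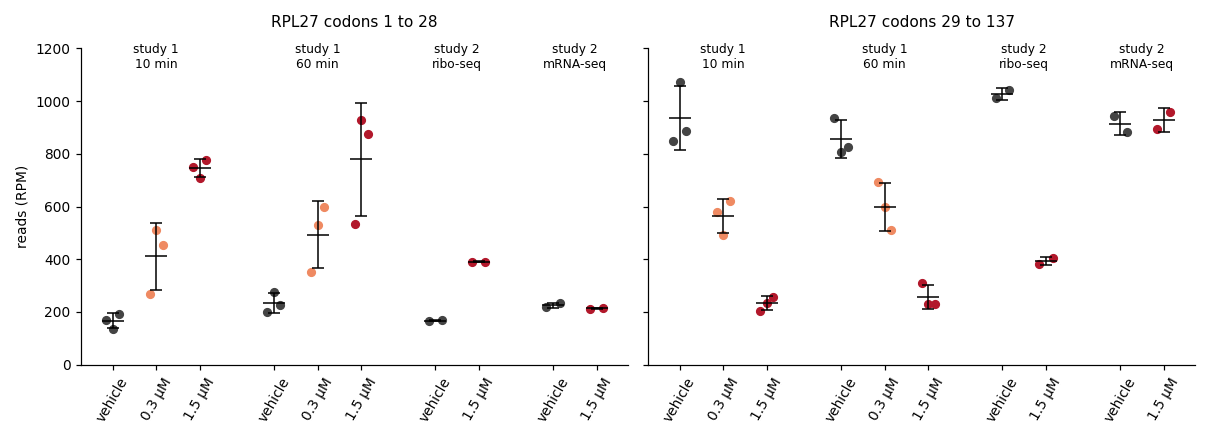
RPL27 reads in RPM at codons 1 to 28 (left) and at codons 29 to 137 (right) for each library, with a bar at the group mean and whiskers of 1 SD (n = 3 in study 1, n = 2 in study 2). At 10 min the 1.5 μM libraries sit at 708 to 777 RPM on the left and at 205 to 258 RPM on the right, against 136 to 193 RPM and 849 to 1073 RPM in vehicle, while the mRNA-seq libraries of both groups lie together.

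The added reads lay mainly in 2 narrow stretches and not evenly over the whole 5′ region. The windows named here were drawn after the codon profile had been seen, and their values are a description. Codons 23 to 28 held 396 to 492 RPM at 1.5 μM after 10 min and 61.4 to 99.3 RPM in vehicle, a ratio of the means of 5.25. Codons 13 to 16 held 213 to 244 RPM at 1.5 μM and 8.57 to 17.4 RPM in vehicle, a ratio of 19.0. In both windows the groups were apart in all 3 libraries.

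The 6 codons in between, 17 to 22, held 36.3 ± 8.4 RPM in vehicle and 49.4 ± 2.6 RPM at 1.5 μM (SD, n = 3). Codons 1 to 12, at the start of the reading frame, were lower with the compound, at 20.8 ± 2.4 RPM against 32.9 ± 5.9 RPM in vehicle. The initiation codon alone held 11.5 to 11.8 RPM in vehicle and 6.36 to 8.004 RPM at 1.5 μM, with no overlap.

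Single codons carried much of each stretch. Codon 26 held 122, 129 and 148 RPM at 1.5 μM and 27.5, 22.4 and 19.3 RPM in vehicle. Codon 23 held 112, 110 and 120 RPM at 1.5 μM and 31.9, 17.5 and 31.2 RPM in vehicle. Both codons were higher in every treated library. By the mean of the vehicle libraries, codon 23 was the tallest of the first 28 codons in each of the 3 vehicle groups, whereas codon 26 was 2 in this order at 10 min, 3 at 60 min and 6 in study 2. In vehicle at 10 min, codon 23 had 3.41 ± 1.24 times the mean reads per codon of the RPL27 reading frame, and codon 26 had 2.90 ± 0.69 times (SD, n = 3). At 1.5 μM these values were 15.98 ± 0.14 and 18.6 ± 1.1 times, respectively.

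The upstream peak was low in vehicle. Codon 14 held 1.51, 0.72 and 4.95 RPM in vehicle, below the mean codon of RPL27, and 70.3, 131 and 88.3 RPM at 1.5 μM. Codon 15 held 6.03, 4.97 and 9.42 RPM in vehicle, up to 1.198 times the mean codon of RPL27, and 119, 69.2 and 99.2 RPM at 1.5 μM. In the 60-min vehicle libraries, codon 15 stood at 0.41 to 1.96 times the mean codon. Codon 14 lies 12 codons before codon 26 and 9 codons before codon 23. The share of RPL27 reads at codons 13 to 16 was 23.2% ± 2.7 at 1.5 μM and 1.09% ± 0.47 in vehicle (SD, n = 3). The share at codon 26 was 13.6% ± 0.8 and 2.12% ± 0.51, and that up to codon 28 was 76.2% ± 2.0 and 15.3% ± 3.6.

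The share up to codon 28 gave p = 0.1 in a two-sided exact permutation test, the smallest value that 3 libraries against 3 allow (0.182 after Benjamini-Hochberg adjustment over 20 tests). The center of density, the mean codon position of all RPL27 reads, moved from codon 79.1 ± 4.0 to codon 35.5 ± 1.6 with the same permutation p of 0.1.

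**Figure D2:**
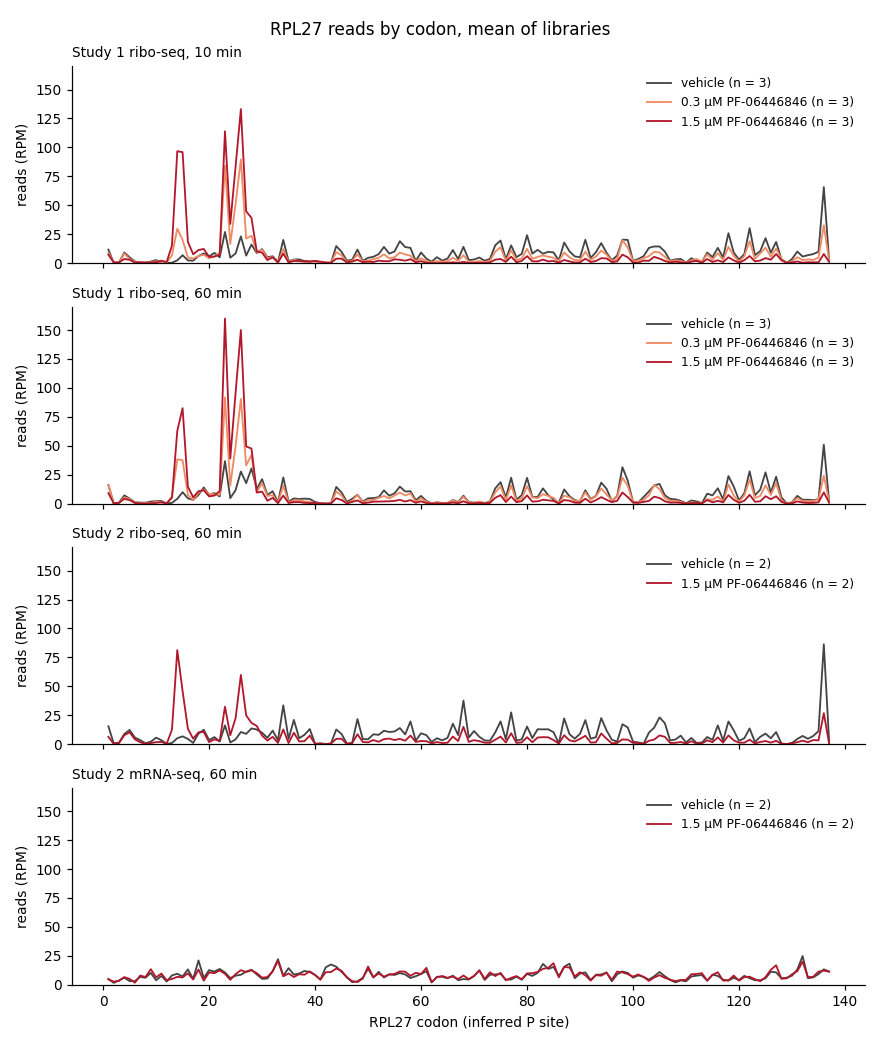
Mean RPL27 reads in RPM at each of the 137 codons, by inferred P site, for study 1 after 10 min and after 60 min (n = 3 per line) and for study 2, with mRNA-seq below ribo-seq (n = 2 per line). In ribo-seq the 1.5 μM lines peak at codons 14 to 15 and 23 to 26, and of the 109 codons after codon 28 their mean is below vehicle at 102 after 10 min, 109 after 60 min and 108 in study 2.

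At 0.3 μM after 10 min, the same 2 stretches held more reads than in vehicle, with a wider spread between libraries than at 1.5 μM. This comparison and that at 1.5 μM share their vehicle libraries. The 3′ reads amounted to 579, 493 and 620 RPM, below the 849 to 1073 RPM of the vehicle libraries and above the 205 to 258 RPM of the 1.5 μM libraries. The 5′ reads amounted to 267, 511 and 454 RPM, and likewise lay between the other groups without overlap. The split against vehicle was -1.98 ± 0.29 on the log2 scale (adjusted p = 0.0127, edgeR), and RPL27 was 1 of 4 transcripts that passed out of 10961 (0.0365%, or 0 to 9 transcripts without 1 library).

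Taken alone, neither stretch passed at 0.3 μM. The change of the 3′ reads was -0.70 ± 0.13 (unadjusted p = 2.59e-04, adjusted p = 1.0, edgeR) and that of the 5′ reads 1.30 ± 0.25 (unadjusted p = 1.08e-04, adjusted p = 0.411, edgeR). In both comparisons edgeR passed 0% of the transcripts, with 108 and 134 at an unadjusted p under 0.05. A DESeq2 Wald test passed 4 and 2 transcripts, RPL27 among them in each, at adjusted p = 0.00579 and 0.00774. The whole-CDS change at 0.3 μM was -0.14 ± 0.14, in a comparison in which edgeR and DESeq2 both passed 0 transcripts and 104 had an unadjusted p under 0.05 in edgeR.

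The call for the split at 0.3 μM did not hold in every refit, although its direction did. It was lost when 0.3 μM replicate 3 or vehicle replicate 1, 2 or 3 was left out (log2 split -1.70 to -2.12, adjusted p up to 0.206, edgeR), and also with the boundary taken from these libraries themselves, at codon 32 (-1.84, adjusted p = 0.11). It was kept without 0.3 μM replicate 1 or 2 and with the replicate number as a block (-1.98, adjusted p = 0.0487).

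Between the 2 concentrations after 10 min, the split was -1.93 ± 0.24 on the log2 scale (adjusted p = 0.00326, edgeR), and RPL27 was 1 of 8 transcripts that passed (0.0734% of 10894, or 0 to 68 transcripts without 1 library, with 68 without 0.3 μM replicate 2). The difference in 3′ reads, 1.5 μM minus 0.3 μM, was -1.22 ± 0.12 (adjusted p = 0.00166, edgeR, 0.0745% of 10734 transcripts passed, or 4 to 14 of them without 1 library). The split lost its call without 1.5 μM replicate 1 or 3 (-1.87 and -1.94, adjusted p up to 0.136), and the 3′ reads kept theirs in all 6 refits. Replicate numbers paired the libraries of these 2 groups. With the replicate block the split passed for 27 transcripts and the 3′ reads for 193, with RPL27 at adjusted p = 2.57e-08 and 5.20e-05.

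The 5′ reads differed between the concentrations by 0.67 ± 0.21 on the log2 scale, which did not pass (adjusted p = 0.608, edgeR, 0 of 7324 transcripts, 591 at an unadjusted p under 0.05 and 2 passing in DESeq2). With the replicate block the 5′ difference was 0.71 ± 0.17 at adjusted p = 0.0477, in a fit in which 0.847% of the transcripts passed. Codons 23 to 28 held 199, 378 and 281 RPM at 0.3 μM, with a mean 3.35 times that of vehicle, and codons 13 to 16 held 21.6, 68.7 and 93.6 RPM, with a mean 5.16 times that of vehicle. The mean at 1.5 μM was 1.57 times that at 0.3 μM for codons 23 to 28 and 3.69 times for codons 13 to 16, and no library of either concentration overlapped in these windows.

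**Figure D3:**
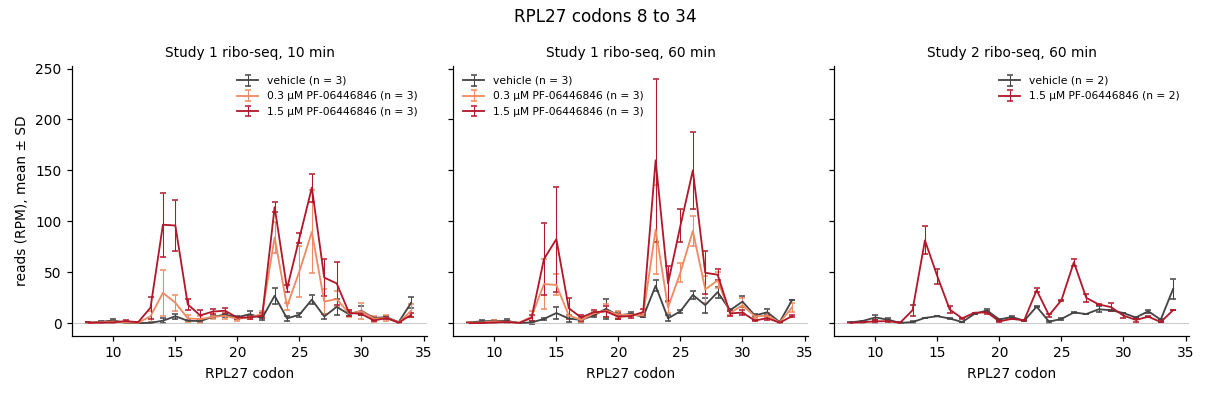
RPL27 reads in RPM at codons 8 to 34 as the group mean with bars of 1 SD, in study 1 after 10 min (left) and 60 min (middle, n = 3 each) and in study 2 after 60 min (right, n = 2). The peaks at codons 23 and 26 are the taller ones in study 1 and the peak at codon 14 is the tallest in study 2, and from codon 31 to 34 both treated means after 10 min are below vehicle.

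In the 60-min libraries of study 1, on which RPL27 was selected, the 3′ reads were again lower and the 5′ reads higher than in vehicle. The 3′ reads amounted to 310, 231 and 232 RPM at 1.5 μM, to 691, 597 and 510 RPM at 0.3 μM and to 937, 806 and 826 RPM in vehicle. The 5′ reads amounted to 533, 930 and 874 RPM at 1.5 μM, to 353, 529 and 598 RPM at 0.3 μM and to 200, 277 and 225 RPM in vehicle. The 3′ levels of the 3 groups did not overlap, whereas the 5′ level of replicate 1 at 1.5 μM lay within the range at 0.3 μM. Replicate numbers paired these libraries, and within each number the 5′ level was higher at 1.5 μM than at 0.3 μM. At codons 13 to 16, replicate 1 held the fewest reads in each of the 3 groups, 67.9 RPM at 1.5 μM against 252 and 175 RPM in replicates 2 and 3, 43.4 RPM at 0.3 μM and 7.48 RPM in vehicle.

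The tallest codon varied among these libraries. At 1.5 μM it was codon 26 in replicates 1 and 2, with 124 and 193 RPM, and codon 23 in replicate 3, with 252 RPM. The largest gains of the group means over vehicle were 123 RPM at codon 23 and 122 RPM at codon 26. All 109 codons 3′ to the boundary had a lower mean at 1.5 μM than in vehicle. The fitted split was -3.44 on the log2 scale at 1.5 μM and -1.55 at 0.3 μM, and the whole-CDS changes were -0.07 and -0.00. Without 1 library these ranged from -0.17 to 0.09 and from -0.03 to 0.05, so that neither had a fixed direction.

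In study 2, RPL27 reads were again higher 5′ and lower 3′ in the treated cells, and their total was lower. The 3′ reads amounted to 382 and 404 RPM at 1.5 μM and to 1012 and 1044 RPM in vehicle. The 5′ reads amounted to 391 and 390 RPM at 1.5 μM and to 166 and 169 RPM in vehicle. Treated and vehicle libraries were apart in both stretches, and the libraries within a group differed little.

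The 3′ reads fell by 1.39 ± 0.06 on the log2 scale (n = 2 against 2, adjusted p = 4.95e-07, edgeR, 0.355% of 10988 transcripts passed, or 33 to 160 of them without 1 library), to 38.2% of vehicle. The 5′ reads rose by 1.18 ± 0.10 (adjusted p = 7.83e-09, edgeR, 0.219% of 8687 transcripts passed, or 17 to 35 of them without 1 library). The split was -2.56 ± 0.11 (adjusted p = 4.06e-68, edgeR), in a comparison in which 0.588% of 11063 transcripts passed (45 to 77 of them without 1 library). The size of both values depended on the boundary. With codon 50 in place of codon 28, the 5′ change was 0.42 (adjusted p = 0.0516) and the split -1.92 (adjusted p = 6.38e-24, edgeR). With 2 libraries a group, these p-values rest on the spread that edgeR shares between transcripts.

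RPL27 reads over the whole coding sequence stood at 774 and 794 RPM at 1.5 μM and at 1178 and 1213 RPM in vehicle. Both treated libraries were lower, and the whole-CDS level fell by 0.61 ± 0.06 on the log2 scale (adjusted p = 0.0012, edgeR, 0.115% of 11263 transcripts passed, or 10 to 129 of them without 1 library). In study 1 at 1.5 μM the whole-CDS values were -0.12 after 10 min and -0.07 after 60 min, and whether the studies differ was not tested.

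In study 2, codon 14 was the tallest codon in both treated libraries, as it was in replicate 2 at 1.5 μM after 10 min in study 1. It held 90.99 and 71.6 RPM against 4.95 and 5.40 RPM in vehicle. Codon 26 came next, at 62.4 and 57.3 RPM against 11.1 and 10.0 RPM. Codon 23 held 30.8 and 34.01 RPM against 16.8 and 15.6 RPM. Codons 13 to 16 together held 19.6% ± 1.5 of the RPL27 reads at 1.5 μM and 1.47% ± 0.02 in vehicle, and the share up to codon 28 was 49.8% ± 1.0 against 14.01% ± 0.09 (SD, n = 2). The exact permutation p of the share up to codon 28 was 0.333, the smallest that 2 libraries against 2 allow (0.417 adjusted over the 20 tests).

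The mRNA-seq of study 2 did not separate the groups in the total or in the share of reads up to codon 28. RPL27 mRNA reads stood at 1105 and 1175 RPM at 1.5 μM and at 1162 and 1115 RPM in vehicle, so that the groups overlapped. The whole-CDS change of the mRNA was -0.01 ± 0.08 on the log2 scale (adjusted p = 0.999, edgeR), and the split was 0.08 ± 0.14 (adjusted p = 1.0, edgeR). In both comparisons edgeR passed 0% of the transcripts, with 228 and 302 at an unadjusted p under 0.05, and DESeq2 passed 1 and 2, neither of them RPL27. Without 1 library, edgeR passed 0 to 2 transcripts for the whole CDS and 0 to 1421 for the split (1421 without vehicle replicate 4), again without RPL27. The share of mRNA reads up to codon 28 was 19.1% and 18.4% at 1.5 μM and 18.7% and 20.8% in vehicle. Codons 1 to 12 held 67.6 to 76.7 RPM at 1.5 μM and 54.1 to 66.4 RPM in vehicle, and the other windows overlapped. Dmax reached 0.0796 between the vehicle libraries and 0.0268 between treated and vehicle libraries, so the vehicle libraries were unlike each other.

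Translational efficiency is the ratio of ribo-seq to mRNA-seq level. Per the study's methods, both kinds of library came from the same sample. Neither the main fit nor the replicate block had a term for the sample. For codons 29 to 137, the ratio of RPM was 0.427 and 0.422 in the 2 replicates at 1.5 μM and 1.07 and 1.18 in vehicle. The efficiency of the 3′ reads fell by 1.39 ± 0.11 on the log2 scale (adjusted p = 1.89e-04, edgeR interaction of assay and treatment), and RPL27 was 1 of 15 transcripts that passed out of 11525 (0.13%), a number that ranged from 6 to 184 without 1 library (184 without mRNA-seq vehicle replicate 4). Over the whole coding sequence the ratio was 0.700 and 0.676 at 1.5 μM and 1.01 and 1.09 in vehicle. That change was -0.61 ± 0.10 and did not pass (adjusted p = 0.159, edgeR, 0.0339% of 11799 transcripts passed, or 1 to 128 of them without 1 library). It did pass with the replicate block (adjusted p = 0.0254) and in DESeq2 (adjusted p = 0.00787). For codons 1 to 28 the ratio was 1.86 and 1.81 at 1.5 μM and 0.761 and 0.728 in vehicle.

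The loss 3′ to the boundary was not even along the reading frame. After 10 min at 1.5 μM, codons 29 to 50 kept 0.53 of the mean vehicle level (57.9 to 65.8 RPM against 96.7 to 138 RPM), codons 51 to 90 kept 0.18 (58.2 to 64.6 RPM against 302 to 413 RPM) and codons 91 to 136 kept 0.23 (88.2 to 127 RPM against 438 to 549 RPM). No window overlapped between the groups. In study 2 the corresponding ratios were 0.51, 0.38 and 0.34. In the 60-min libraries of study 1 they were 0.38, 0.30 and 0.28.

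At 0.3 μM after 10 min the ratios for the same windows were 0.73, 0.53 and 0.62, with the first window overlapping vehicle. The codons directly after the boundary were near vehicle in the 10-min comparison: codon 29 held a mean of 10.1 RPM at 1.5 μM and 8.69 RPM in vehicle, and codon 30 held 9.03 and 12.1 RPM. The last sense codon, 136, was the tallest codon of RPL27 in vehicle after 10 min, at 44.6 to 103 RPM. It held 4.07 to 12.8 RPM at 1.5 μM and 27.2 to 40.4 RPM at 0.3 μM. In the 60-min libraries of study 1, codon 136 held 104, 20.5 and 28.1 RPM in vehicle, and codon 23 was the tallest in vehicle replicates 2 and 3. There it held 40.7, 20.3 and 11.4 RPM at 0.3 μM, which overlapped vehicle, and 17.9, 5.29 and 6.04 RPM at 1.5 μM. In study 2, codon 136 held 26.8 RPM in each treated library against 76.3 and 96.3 RPM in vehicle.

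By the Z-score of Dmax, RPL27 stood in the first 3 ranks in the 10-min and study 2 ribo-seq comparisons, whereas by Dmax itself it ranked 4 after 10 min at 1.5 μM, 116 at 0.3 μM, 161 between the concentrations and 94 in study 2. For libraries pooled by group, Dmax after 10 min at 1.5 μM was 0.612 at codon 29, with a Z-score of 6.90 (Dmax over the root mean square Dmax of transcripts of similar read number), rank 1 of 11422. At 0.3 μM after 10 min it was 0.304 at codon 32 (Z-score 6.01, rank 2 of 11530). In study 2 it was 0.368 at codon 30 (Z-score 10.8, rank 1 of 11405). In the 60-min libraries of study 1, which chose RPL27, it was 0.491 at codon 28 for 1.5 μM (Z-score 8.26) and 0.224 at codon 28 for 0.3 μM (Z-score 8.50). In mRNA-seq it was 0.0113 (Z-score 0.60).

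Single libraries were also compared in pairs. The 9 pairs of a 1.5 μM and a vehicle library after 10 min had Dmax values of 0.574 to 0.678, all at codons 27 to 30, whereas pairs within the vehicle group reached 0.111 at most and pairs within the 1.5 μM group 0.0921. The 9 pairs of a 0.3 μM and a vehicle library had 0.139 to 0.417 at codons 27 to 43, and pairs within the 0.3 μM group reached 0.230. In study 2 the 4 pairs had 0.366 to 0.373 at codons 29 to 31, against at most 0.0199 within vehicle and 0.0351 within the 1.5 μM group.

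Ordered by the share of RPL27 reads up to codon 28, the ribo-seq groups ran from study 2 vehicle (14.01% ± 0.09), 10-min vehicle (15.3% ± 3.6) and 60-min vehicle (21.5% ± 4.0) over 10-min 0.3 μM (41.6% ± 9.7), 60-min 0.3 μM (44.9% ± 10.2) and study 2 at 1.5 μM (49.8% ± 1.0) to 60-min 1.5 μM (74.1% ± 9.5) and 10-min 1.5 μM (76.2% ± 2.0). The ranges of neighbours overlapped within the vehicle groups, within the middle trio and within the last pair. They did not overlap between 60-min vehicle (up to 25.6%) and 10-min 0.3 μM (from 31.6%), nor between study 2 at 1.5 μM (up to 50.6%) and 60-min 1.5 μM (from 63.2%), and 60-min 0.3 μM reached 54.0%. At 1.5 μM the 2 times of study 1 gave overlapping shares, 75.0% to 78.5% after 10 min and 63.2% to 80.1% after 60 min.

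The other proteins of the 60S subunit had smaller splits than RPL27 in the ribo-seq comparisons tested. Of 46 other 60S genes, 45 matched a transcript by gene name and 44 were tested for the split, since RPL41, left out after its counts were seen, had no reads after its boundary. After 10 min at 1.5 μM, 4 of them passed with relatively fewer 3′ reads and 8 with relatively more, with a median of 0.11 beside 0.01 over all transcripts, of which 4.44% passed. These directions are relative to the other transcripts, since each stretch was scaled on its own. The list was not refitted with 1 library size for both stretches, so the directions without that scaling are not known. The passing members ranged from -0.85 ± 0.19 for RPLP1, an acidic stalk protein, to 1.38 ± 0.21 for RPL39 (adjusted p = 0.00883 and 8.67e-05, edgeR), and RPL27 at -3.91 lay outside this range. With the boundary at codon 50 for every transcript, the members ranged from -0.84 for RPLP1 to 1.38 for RPL39, and RPL27 was at -3.51. In a short reading frame, codon 50 leaves few codons 3′ to it. The lengths of the members' reading frames were not taken into account, so the upper end may rest on a short 3′ stretch. The second lowest was RPL23A (-0.60 ± 0.16, adjusted p = 0.0367) and the second highest was RPL5, which binds 5S rRNA (0.91 ± 0.19, adjusted p = 0.00585, edgeR). RPL8 and RPL11 also passed downwards, at -0.55 and -0.51, and RPL28, RPL29, RPL34, RPL18, RPL35A and RPL7 passed upwards, at 0.87, 0.73, 0.62, 0.59, 0.59 and 0.51.

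In study 2, where 0.588% of all transcripts passed, 0 of 44 members did in edgeR, and the members ranged from -0.35 to 0.32. With the boundary at codon 50 for every transcript, they ranged from -0.37 to 0.30, and RPL27 was at -1.92. DESeq2 passed 1 member there, RPL15 at -0.33, which was named after its value was seen. At 0.3 μM after 10 min, where 0.0365% of all transcripts passed, 0 of 44 members did in edgeR, with a range of -0.52 to 0.50. At such shares a count of 0 among 44 says nothing about the members. Per codon, RPL27 was read at 8.04 RPM in 10-min vehicle libraries, 8 of 46 in the order of the 60S transcripts including RPL27, and at 8.31 RPM in vehicle mRNA-seq, 15 of 46.

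**Figure D4:**
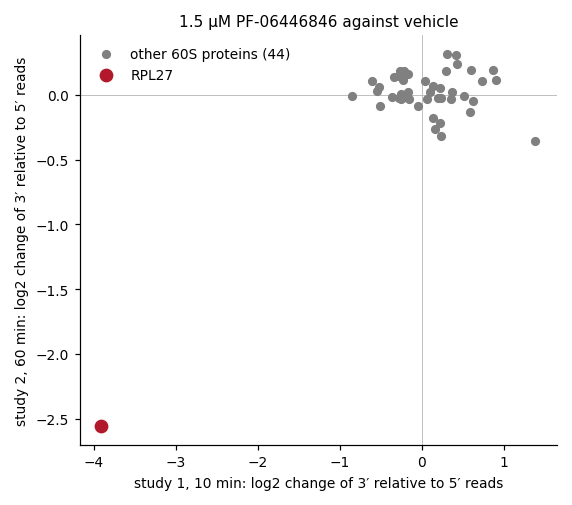
Log2 change of 3′ reads relative to 5′ reads at 1.5 μM PF-06446846 against vehicle for RPL27 and 44 other 60S proteins, in study 1 after 10 min (horizontal axis) and in study 2 after 60 min (vertical axis). Each stretch was scaled on its own over all transcripts, so the values are relative to the other transcripts. RPL27 lies at -3.91 and -2.56, and the other points lie between -0.85 and 1.38 and between -0.35 and 0.32.

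Among 3111 other transcripts of at least 100 codons with at least 50 reads on average on either side of codon 50, the ratio of reads up to codon 50 to those after it, centred on the vehicle libraries of the same study and time, was compared with that of RPL27 over the 22 ribo-seq libraries. The nearest transcript was TM2D3, at a root mean square difference of 0.49 on the log2 scale, and SUMF1, PODXL2 and HSD17B11 were at 0.56, 0.62 and 0.68, beside a median of 1.96. TM2D3 and PODXL2 encode membrane proteins, SUMF1 the enzyme that generates formylglycine in sulfatases and HSD17B11 a hydroxysteroid dehydrogenase of lipid droplets. The mean log2 ratio of TM2D3 was 3.597 after 10 min at 1.5 μM, 1.94 at 0.3 μM and 1.77 in study 2, against 3.79, 1.55 and 1.96 for RPL27. This is a description of likeness, with no test. The ratio does not tell a gain up to codon 50 from a loss after it. For TM2D3, the study reported stalls without a fall in the reads 3′ to them.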

How the data were processed

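The samples were Huh7 ribo-seq (22 libraries) and mRNA-seq (4 libraries). Per the labels and the study's methods, the authors aligned reads to coding transcripts with Bowtie 1.1.2 (GRCh38) keeping reads with a few equally good sites, and deposited read counts per codon at the inferred P site. The tools kallisto 0.42.5 and DESeq are also named in the submitters' processing notes. The deposited counts were used as they stand. No further normalization had been applied, and the Dmax and Z-score steps were modelled on the procedure published with the study.

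Counts were summed per transcript over the whole coding sequence, up to the boundary and after it. The boundary was the Dmax codon of the pooled 60-min study 1 libraries (Z-score at least 2, otherwise codon 50), where Dmax used transcripts with at least 10 reads in each group and Z-scores were taken in bins of 300 transcripts. Each comparison was fitted across all transcripts of its own groups with edgeR 4.0.16 in R 4.3.3 (filterByExpr, TMM, glmQLFit, glmQLFTest) and Benjamini-Hochberg adjustment at an FDR of 0.1. The split was the interaction of stretch and treatment, with a term per library and a separate library size and TMM factor for each stretch. Of the transcripts tested for it, 141 to 233 a comparison had no reads in 1 stretch, and 0 of these passed. SE was the absolute log2 change divided by the square root of F. Translational efficiency was an interaction of assay and treatment. DESeq2 1.42.0 was an alternative. Fits were tested on simulated counts. Single shares were compared by exact permutation tests. Gene names came from GENCODE 44 (11270 of 12325 transcripts matched). Depth was 6414227 to 22224137 coding-sequence reads a library.

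RPL27, the gene lists and the tests were chosen with earlier results of these data known. Named genes were RPL27, the 5 transcripts nearest to it, the 2 highest and 2 lowest 60S members for the 10-min split at 1.5 μM, and 60S members past the FDR. Of these, 1 of the nearest transcripts is not reported here. Likeness used a pseudocount of 0.5. Protein sequences were not used here.

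Replicate numbers come from the labels. After 10 min, deviations from the group mean correlated between same-numbered libraries at 0.153 to 0.531 for 0.3 μM against vehicle. For 1.5 against 0.3 μM after 10 min the range was 0.221 to 0.388, and in the 60-min comparisons of study 1 it was 0.406 to 0.780. These were taken as paired. For 1.5 μM against vehicle after 10 min the range was 0.0561 to 0.234, and these libraries were not taken as paired. Both groups still shared their numbers with the paired 0.3 μM libraries. The main fits had no replicate term, and the replicate block was an alternative. No pair of libraries within a group agreed within sampling noise.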

Additional observations from a re-analysis of the deposited data

How the results depend on the processing

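At 1.5 μM, the 10-min and study 2 changes of the split, the 3′ reads and the 5′ reads of RPL27 kept their direction and their call in every refit made, including those that left out 1 library. No refit at reduced depth was made. The cause of the changes listed next was not tested. For 0.3 μM against vehicle after 10 min, the split was -1.84 and lost its call with the boundary of these libraries, and ranged from -2.24 to -1.70 without 1 library. The DESeq2 Wald test gave calls to the 3′ reads (-0.70) and the 5′ reads (1.31), as did no filter on low counts for the 5′ reads (1.31), which ranged from 1.09 to 1.53 without 1 library and passed without 0.3 μM replicate 1. The split of 1.5 against 0.3 μM ranged from -2.21 to -1.69 without 1 library.

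The replicate block gave a call to the 5′ reads of 1.5 against 0.3 μM (0.71) and to the whole-CDS translational efficiency (-0.61), as did DESeq2 to the latter (-0.62; -0.66 to -0.56 without 1 library, passing without mRNA-seq vehicle replicate 4), and the block changed no other call. For 1.5 μM against vehicle after 10 min, not taken as paired, the block moved the transcripts passing for 3′ reads from 183 to 1143. For the 5′ reads it moved them from 445 to 253. In study 2, with 2 pairs, the counts moved from 39 to 135 for 3′ reads and from 19 to 49 for 5′ reads. The whole-CDS count of study 2 moved from 13 to 129. After 10 min at 1.5 μM, the split passed for 170 to 736 transcripts, the 3′ reads for 27 to 1691 (the latter without vehicle replicate 3), the 5′ reads for 37 to 976 and the whole CDS for 9 to 1656 without 1 library, and DESeq2 passed 592 for the 3′ reads and 519 for the whole CDS, where the block passed 1196. For 1.5 against 0.3 μM, DESeq2 passed 23 for the split and 90 for the 3′ reads. The whole-CDS change after 10 min at 1.5 μM was 0.066 without the last 15 codons. In mRNA-seq, the whole-CDS change ranged from -0.071 to 0.048 without 1 library (0.032 without vehicle replicate 4), the share at codons 13 to 16 from -1.89 to 0.086 percentage points and the center of density from -0.699 to 3.54 codons.

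With the boundary at codon 50, the 5′ change at 1.5 μM was 1.15 at 60 min, 1.31 at 10 min and 0.42 in study 2, where the split was -1.92. At codons 25 to 27 in place of codon 26, the difference in share was 23.3, 12.98, 10.3 and 11.7 percentage points for 1.5 μM and 0.3 μM against vehicle, 1.5 against 0.3 μM and study 2. Without the last 15 codons, the center of density differed by -37.0 codons after 10 min and by -22.2 codons in study 2, and the share up to codon 28 by 37.2 percentage points in study 2. Scored by how many SD it lay above the mean of its bin, Dmax gave 9.70, 7.94 and 7.52 for 1.5 μM and 0.3 μM against vehicle and 1.5 against 0.3 μM after 10 min, 9.83, 11.8 and 8.44 for the same at 60 min, 13.04 in study 2 and -0.38 in mRNA-seq, where the median Dmax of single libraries was 0.0184. DESeq2 passed 1 member of the 60S list for the split of 1.5 against 0.3 μM (RPL28) and 1 in study 2 (RPL15).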
